A study of Mus musculus with 3 samples.

Results

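Transcripts of glycolysis, glucose uptake and lactate export were compared in 3 colonic myeloid populations of healthy mice. The set held 34 genes chosen by symbol: glucose carriers, the enzymes from hexokinase to lactate dehydrogenase, the enzymes that set fructose-2,6-bisphosphate, lactate carriers, kinases of pyruvate dehydrogenase (PDH) and 3 genes of glycogen turnover. All 34 symbols were among the 24346 listed in each library. The populations were Gr-1+ CD11b+ cells, which the labels call neutrophils and monocytes, CD64+ macrophages and CD64- dendritic cells (DC). All came from the colon of BALB/c mice with no treatment named in the labels, and the sources used here do not give the age and sex of the mice or any pooling. CD64 is a high-affinity IgG receptor of macrophages, CD11b is an integrin, and Gr-1 is an epitope of Ly6 proteins of granulocytes and monocytes.

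Each population was a single library, so the differences below lack replication and come without tests or p-values. Levels are FPKM, which counts fragments relative to transcript length and to the library's mapped total, so levels of different genes can be set side by side. Differences between libraries were taken in log2(FPKM + 1), and the added 1 shrinks those of low genes. A gene was called higher or lower where that difference was 2 or more and the higher library held 10 FPKM or more. The call describes size only.

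Glycolysis splits glucose into pyruvate with a net yield of ATP, and lactate dehydrogenase then turns pyruvate into lactate, which restores the NAD+ that the pathway needs. Lactate leaves the cell through monocarboxylate carriers. Neutrophils carry few mitochondria and are known to live largely on glycolysis and on their own glycogen, while macrophages raise glycolysis when they are activated. Several steps have isozymes encoded by separate genes with different affinities, regulation and tissue use.

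The libraries differed in background and in their markers. The steps between low values put the depths of the macrophage and DC libraries at 2.70 and 3.62 times that of the Gr-1+ CD11b+ library. Among 1452 olfactory and vomeronasal receptor genes, which colonic myeloid cells should not use, the 95th percentile was 9.69 FPKM in the Gr-1+ CD11b+ population, 3.24 in macrophages and 0.611 in DC. It is called the silent-gene level here, and lower values are not read as expression. Neutrophil markers, 10 genes, summed to 181089 FPKM in the Gr-1+ CD11b+ population, 4822 in macrophages and 1814 in DC, and all 10 exceeded the silent-gene level in each library. The 10 macrophage markers summed to 13484, 34015 and 3737 FPKM in the same order, with 8, 10 and 10 above that level. Cd14 alone was at 10998, 5981 and 462 FPKM and made up most of the Gr-1+ CD11b+ sum, and every other gene of that list was highest in macrophages. The 10 dendritic cell markers summed to 103, 472 and 1520 FPKM, with 4, 9 and 10 above the silent-gene level. Ccr7 alone was at 27.5, 107 and 1004 FPKM and made up most of the DC sum. Itgax (16.4, 47.0 and 19.7) and Batf3 (1.58, 42.1 and 20.6) were highest in macrophages. Xcr1 (4.18, 3.30 and 2.83) was highest in the Gr-1+ CD11b+ population, though below the silent-gene level there. Every other gene of the dendritic cell list was highest in DC. Markers of B and plasma cells, 8 genes, summed to 431 FPKM in the Gr-1+ CD11b+ population, 1164 in macrophages and 22684 in DC, with 4, 7 and 8 above it. The 7 monocyte markers summed to 752 FPKM in the Gr-1+ CD11b+ population, 1884 in macrophages and 982 in DC, with 5, 7 and 7 above it. Their sum was thus lowest in the population whose label names monocytes, but the genes did not share 1 order. Ly6c2 was at 320, 782 and 878 FPKM and made up most of the DC sum, while Itgam was at 172, 114 and 18.7. The 8 epithelial markers summed to 769, 218 and 349 FPKM, with 6, 6 and 8 above the silent-gene level. No marker on these lists was listed at 0. The part that other cells played in the values below was not tested, and in bulk samples a smaller share of a cell type and less RNA per cell cannot be told apart.

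Most of the pathway was expressed in all populations. Of the 34 genes, 22 exceeded the silent-gene level in the Gr-1+ CD11b+ population, 29 in macrophages and 33 in DC, and 22 did so in all 3 libraries. The counts follow the silent-gene level of each library and do not rank the populations. Gapdh, the glyceraldehyde-3-phosphate dehydrogenase of the NADH-forming step, lay above 99.8%, 99.7% and 99.5% of all symbols in the Gr-1+ CD11b+ population, macrophages and DC. The members together held 1.04%, 0.703% and 0.538% of the summed FPKM in that order, and 0.863%, 0.678% and 0.532% without the lactate carrier gene Slc16a3.

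**Figure D1:**
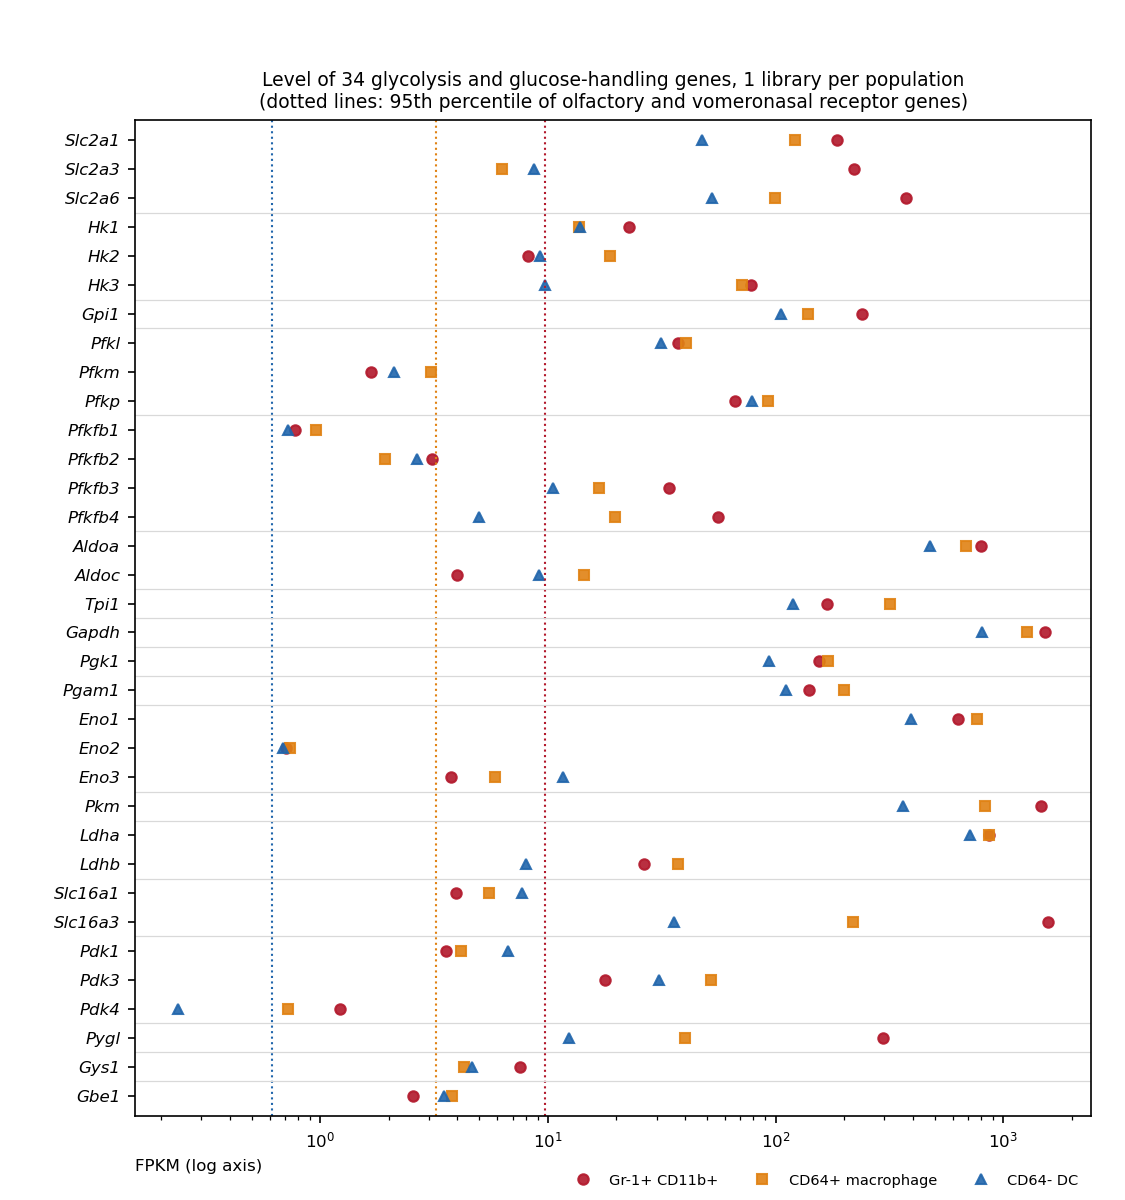
FPKM of each of the 34 genes on a log axis, ordered by pathway step, with 1 point per library; grey lines separate steps and dotted lines mark the silent-gene level of the library of that colour (9.69, 3.24 and 0.611 FPKM). Slc16a3, Pygl and Slc2a3 lie far to the right in the Gr-1+ CD11b+ population, while Pfkl, Pfkp and Ldha lie close together in the 3 libraries.

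The calls fell on 8 genes, among them carriers of glucose and lactate, and each was for a higher level in the population named first below. In the Gr-1+ CD11b+ population against macrophages, 3 members were called higher (Slc2a3, Slc16a3 and Pygl) and 0 lower, where 1.41% of the 17329 genes compared were called higher and 3.41% lower. In the Gr-1+ CD11b+ population against DC, 7 were called higher (those 3 with Slc2a6, Hk3, Pfkfb4 and Pkm) and 0 lower, where 3.65% of all genes compared were called higher and 6.28% lower. In macrophages against DC, 3 were called higher (Hk3, Ldhb and Slc16a3) and 0 lower, where 2.31% of all genes compared were called higher and 1.53% lower. The genes compared had 1 FPKM or more in any library, which 32 of the 34 members did, and Pfkfb1 and Eno2 did not. With median-ratio scaling the calls over all genes were 618 higher and 251 lower for the Gr-1+ CD11b+ library against the macrophage library, where they were 244 and 591 as deposited. Against the DC library they were 1126 and 353, where they were 633 and 1088 as deposited. The members called higher were then 5 and 10, and 0 were called lower. With a log2 limit of 1, the members called higher were 5, 11 and 8 in the Gr-1+ CD11b+ population against macrophages, in the Gr-1+ CD11b+ population against DC and in macrophages against DC, where 4.72%, 6.03% and 5.69% of all genes compared were called higher. Members called lower were 3, 1 and 0, where 15.1%, 18.6% and 5.59% of all genes were. With a limit of 3, the members called higher were 1, 4 and 0, where 0.577%, 2.07% and 0.652% of all genes were, and 0 members were called lower in each comparison, where 0.716%, 1.38% and 0.681% of all genes were. The comparisons share libraries, so their calls are not independent of each other.

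**Figure D2:**
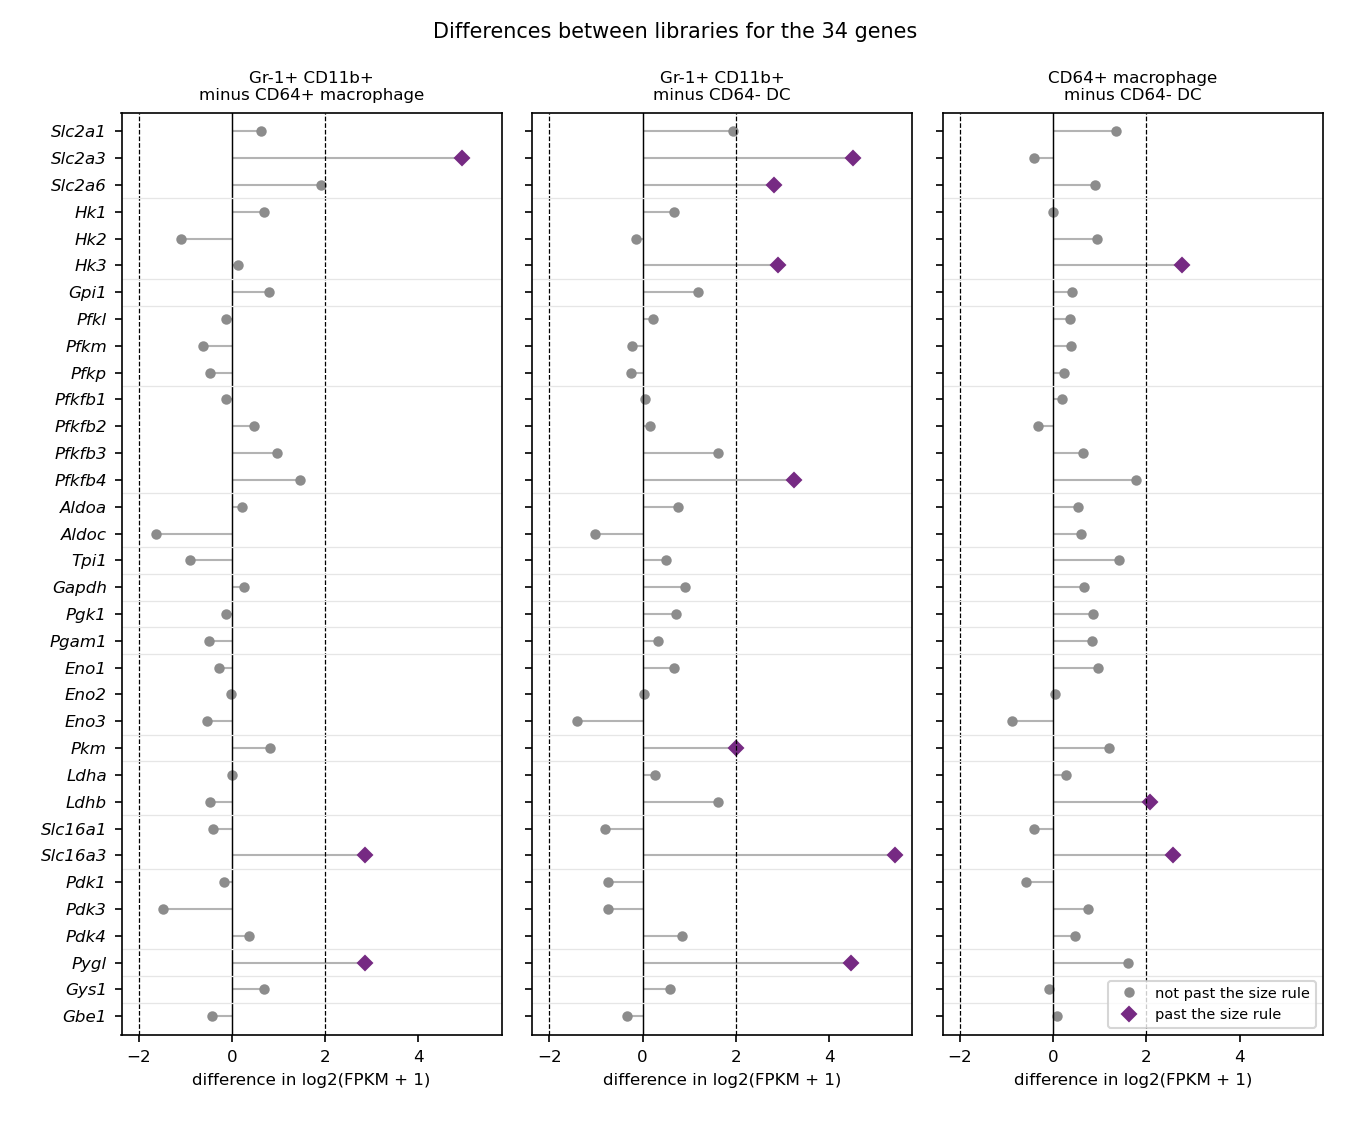
Difference in log2(FPKM + 1) for each of the 34 genes in 3 comparisons, with dashed lines at differences of 2 and -2; purple diamonds passed the size rule and grey circles did not. Diamonds number 3, 7 and 3 from left to right and all lie to the right of 0.

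Glucose enters cells through facilitative carriers, and their transcripts were highest in the Gr-1+ CD11b+ population. Slc2a3 encodes GLUT3, a high-affinity carrier of neurons and leukocytes, lies at chr6:122727809-122801640 (GRCm38, minus strand) and was at 222 FPKM in the Gr-1+ CD11b+ population, 6.30 in macrophages and 8.67 in DC. The library of the Gr-1+ CD11b+ population stood alone, with differences of 4.93 from macrophages and 4.52 from DC. These values rested on about 1972, 151 and 279 fragments, and their 95% Poisson intervals, which cover counting error only, were 212 to 232, 5.33 to 7.38 and 7.68 to 9.75 FPKM. The fragment numbers are estimates from the steps of low values and the median length of the annotated coding transcripts.

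Slc2a6 (chr2:27021363-27027998, minus strand) encodes GLUT6, a carrier of leukocytes found largely on internal membranes, and was at 375 FPKM in the Gr-1+ CD11b+ population, 99.3 in macrophages and 52.6 in DC. It passed the size rule against DC, with a difference of 2.81, and lay just short of it against macrophages, at 1.91. With the libraries scaled by median ratios the second difference was 2.48 and was called, and with library sums made equal it was 1.92 and was not. Slc2a1, the gene of the widespread basal carrier GLUT1, had levels of 187, 122 and 47.6 FPKM. Its difference of 1.95 between the Gr-1+ CD11b+ population and DC lay just short of the rule. It was 2.72 with median-ratio scaling and 1.58 with library sums made equal. The levels of Slc2a1 and Slc2a6 ranked in the order Gr-1+ CD11b+, macrophage, DC, and those of Slc2a3 did not, since its macrophage minus DC difference was -0.41.

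Because FPKM is per length, the share of an isozyme in its step can be read within a library, and such shares do not move with library scaling. Of the summed FPKM of the 3 glucose carriers in the set, Slc2a3 held 28.3% in the Gr-1+ CD11b+ population, 2.77% in macrophages and 7.96% in DC. Slc2a1 held 23.9%, 53.5% and 43.7%, and Slc2a6 held 47.8%, 43.7% and 48.3%. The carriers summed to 783 FPKM in the Gr-1+ CD11b+ population, 227 in macrophages and 109 in DC. Slc2a6 thus held a similar share in each library, and the share of Slc2a3 was above that of Slc2a1 in the Gr-1+ CD11b+ library and below it in the macrophage and DC libraries. The sums and shares leave out Slc2a8, which was above Slc2a3 in the macrophage and DC libraries.

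Hexokinases trap glucose in the cell by phosphorylating it, and the isozyme make-up of this step set DC apart. Hk3 (chr13:55005985-55021385, minus strand), a hexokinase of myeloid cells, was at 78.4 FPKM in the Gr-1+ CD11b+ population, 71.0 in macrophages and 9.66 in DC. The difference from DC was 2.90 in the Gr-1+ CD11b+ population and 2.76 in macrophages, and that between the Gr-1+ CD11b+ population and macrophages was 0.14. Estimated fragments were 526, 1287 and 235, with counting intervals of 71.8 to 85.3, 67.2 to 75.05 and 8.47 to 10.99 FPKM. Hk1, the constitutive isozyme that binds mitochondria, was at 22.6, 13.7 and 13.9 FPKM. Hk2, the isozyme induced by insulin and hypoxia in many tissues, was at 8.18, 18.7 and 9.21 FPKM, and its Gr-1+ CD11b+ value lay below the silent-gene level.

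Hk3 thus held 71.8% of hexokinase FPKM in the Gr-1+ CD11b+ population, 68.7% in macrophages and 29.5% in DC, and Hk1 held 20.7%, 13.3% and 42.4%. Hk2 held 7.496%, 18.05% and 28.1%. With the silent-gene level subtracted from every value the Hk3 shares were 84.2%, 72.4% and 29.3%. The next enzyme, glucose-6-phosphate isomerase (Gpi1), was at 239.6 FPKM in the Gr-1+ CD11b+ population, 139 in macrophages and 105 in DC and was called in no comparison.

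**Figure D3:**
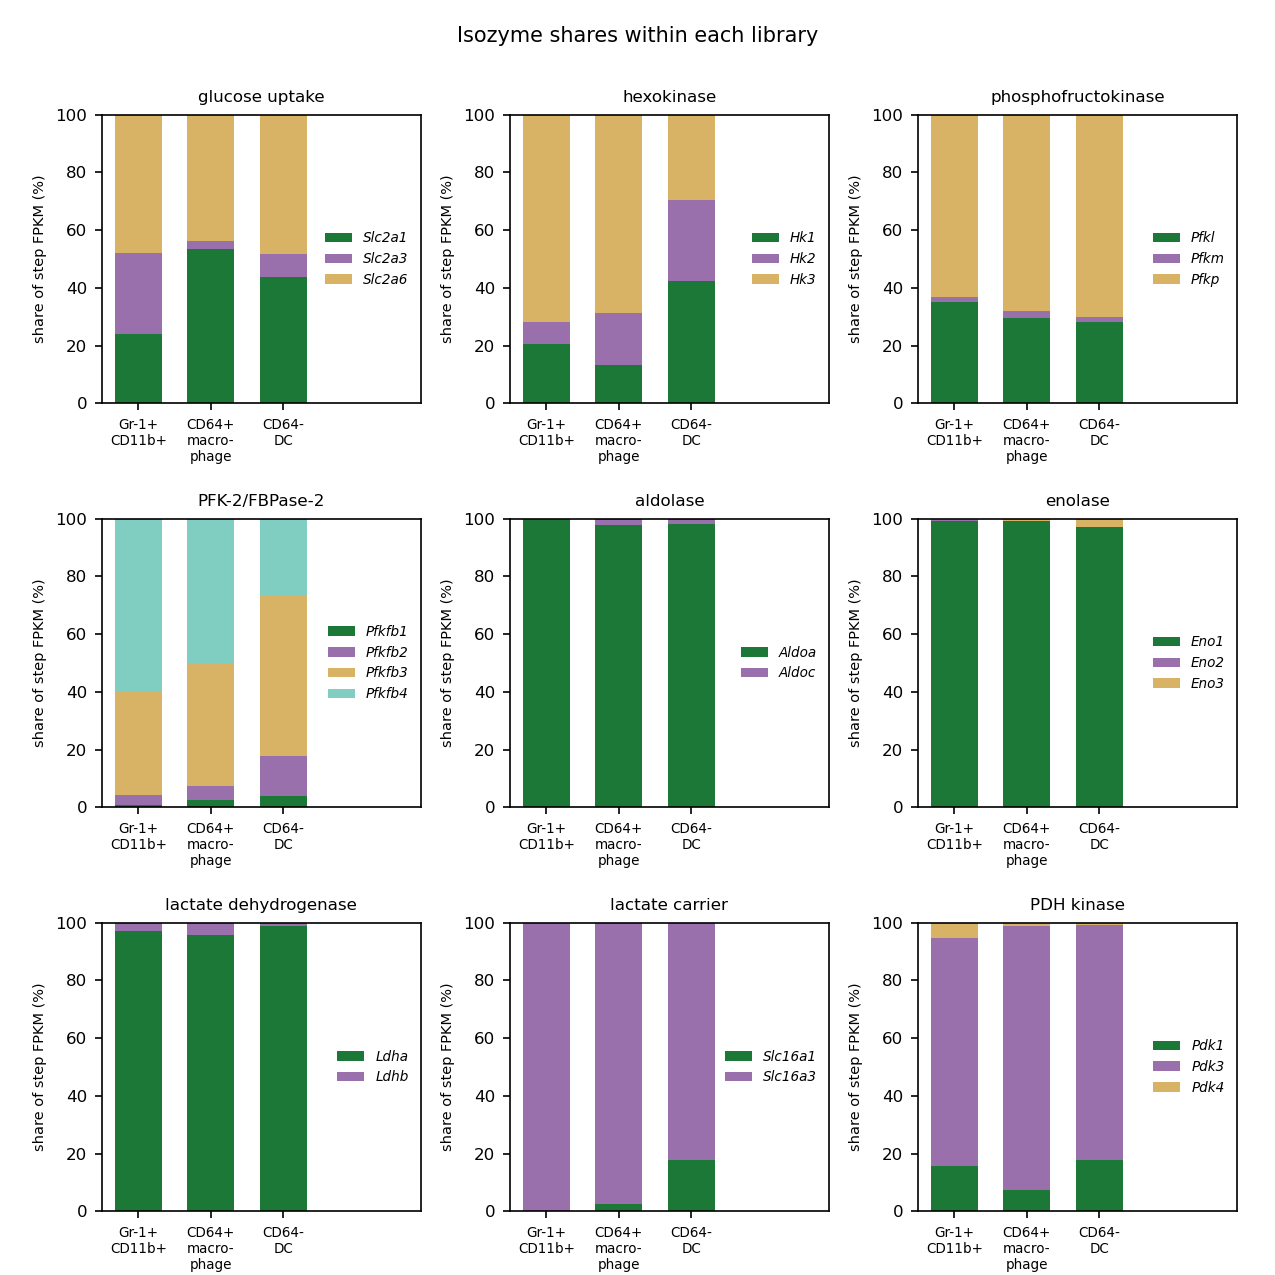
Share of each isozyme in the summed FPKM of its step, in percent, for 9 steps with more than 1 gene, with bars for the Gr-1+ CD11b+ population, macrophages and DC from left to right in each panel. Hk3 stands at 29.5% in DC, Pfkfb4 makes up 59.6%, 49.9% and 26.5% of its step from left to right, and the aldolase, enolase and lactate dehydrogenase bars are nearly a single colour.

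Phosphofructokinase, which commits sugar to glycolysis, had nearly even transcript levels as deposited. Its 3 genes summed to 106 FPKM in the Gr-1+ CD11b+ population, 137 in macrophages and 113 in DC. Pfkp, the platelet-type subunit, was at 66.7, 92.996 and 78.9 FPKM and held 63.1%, 68.0% and 70.1% of the step. Pfkl, the liver-type subunit, was at 37.2, 40.6 and 31.5 FPKM. Pfkm, the muscle-type subunit, was at 1.67, 3.08 and 2.12 FPKM, and only the DC value exceeded the silent-gene level. The differences of all 3 genes lay between -0.61 and 0.39 in the 3 comparisons as deposited. For the Gr-1+ CD11b+ population minus DC, those of Pfkl and Pfkp were 0.23 and -0.24, and 0.99 and 0.53 with median-ratio scaling.

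The Pfkfb genes encode bifunctional enzymes that make and remove fructose-2,6-bisphosphate, the main activator of phosphofructokinase. Pfkfb4 (chr9:108991778-109032228, plus strand) was at 55.8 FPKM in the Gr-1+ CD11b+ population, 19.7 in macrophages and 5.004 in DC, and its difference of 3.24 between the Gr-1+ CD11b+ population and DC was called. The differences of 1.46 between the Gr-1+ CD11b+ population and macrophages and 1.78 between macrophages and DC were not. Estimated fragments were 427, 405 and 138, with counting intervals of 50.7 to 61.4, 17.8 to 21.7 and 4.19 to 5.89 FPKM. Pfkfb3, whose product has a high kinase activity and favours glycolysis, was at 34.05, 16.8 and 10.5 FPKM, and its differences of 0.98, 1.61 and 0.63 did not reach the rule. With median-ratio scaling the Pfkfb4 difference between the Gr-1+ CD11b+ population and macrophages was 2.03 and the Pfkfb3 difference between the Gr-1+ CD11b+ population and DC was 2.35, and both were called. With library sums made equal they were 1.47 and 1.26, and neither was called.

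Pfkfb2 was at 3.08, 1.93 and 2.66 FPKM in the Gr-1+ CD11b+ population, macrophages and DC. Pfkfb1, known mainly from liver and muscle, was at 0.775, 0.955 and 0.722 FPKM. For both genes only the DC value exceeded the silent-gene level of its library. Pfkfb4 held 59.6%, 49.9% and 26.5% of the FPKM of the 4 genes and Pfkfb3 held 36.3%, 42.7% and 55.5%, so the leading gene was Pfkfb4 in the Gr-1+ CD11b+ population and macrophages and Pfkfb3 in DC. In the macrophage library the gap between Pfkfb4 and Pfkfb3 was small, and their counting intervals, 17.8 to 21.7 and 14.7 to 19.2 FPKM, overlapped.

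The middle enzymes, which handle the triose phosphates and the phosphoglycerates, were abundant everywhere and 0 were called. Aldoa, the muscle-type aldolase, was at 803 FPKM in the Gr-1+ CD11b+ population, 690.3 in macrophages and 476 in DC, and held 99.5%, 97.95% and 98.1% of aldolase FPKM. Aldoc, the brain-type aldolase, was at 3.998, 14.4 and 9.16 FPKM, and the first of these lay below the silent-gene level. Tpi1, triose phosphate isomerase, was highest in macrophages, at 169, 318 and 119 FPKM. Gapdh was at 1522, 1269 and 807 FPKM. Pgk1, the first ATP-forming enzyme of the pathway, was at 155, 171 and 93.5 FPKM, and Pgam1, phosphoglycerate mutase, at 141, 199 and 111.

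For the Gr-1+ CD11b+ population minus macrophages the differences of Tpi1, Pgk1 and Pgam1 were -0.91, -0.14 and -0.50, and those of Aldoa and Gapdh were 0.22 and 0.26. Median-ratio scaling shifts every ratio of these libraries by 0.58 on the log2 scale, and the Pgk1 and Pgam1 differences were then 0.44 and 0.08. The direction of these small differences thus depended on the scaling. That of Tpi1 was -0.33 with median-ratio scaling and stayed negative on each scaling tried.

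Enolase transcripts came almost entirely from Eno1, at 631 FPKM in the Gr-1+ CD11b+ population, 771 in macrophages and 395 in DC, or 99.3%, 99.2% and 96.98% of the 3 enolase genes. Eno3, the muscle enolase, was at 3.74, 5.87 and 11.6 FPKM, with the Gr-1+ CD11b+ value below the silent-gene level, and Eno2, the neuronal enolase, did not exceed 0.733 FPKM in any library. Eno1 has a near-identical copy, the retrogene Eno1b on another chromosome, and fragments may be split between them. Eno1b was listed at 232, 220.2 and 58.9 FPKM and held 26.9%, 22.2% and 12.98% of the sum of both. That sum was 863, 991 and 454 FPKM, so the order of the libraries was that of Eno1 alone.

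Other members share sequence with annotated copies as well. Of the 34 genes, 10 had a copy in the mouse annotation with at least 95% identity over at least 50% of the copy. Gapdh had 76, nearly all pseudogenes, of which 2 were listed in the tables with a sum of 19.01 FPKM in the Gr-1+ CD11b+ population, 8.21 in macrophages and 3.91 in DC. The values of Gapdh and Eno1 are therefore uncertain to the extent that fragments were assigned to copies. Of the 8 called genes, Slc2a3, Slc2a6, Hk3, Pfkfb4, Slc16a3 and Pygl had 0 such copies, and Pkm and Ldhb had 1 pseudogene copy each, with no value of its own in the tables.

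Pkm (chr9:59656368-59679375, plus strand) encodes pyruvate kinase, the last ATP-forming enzyme, and was at 1469.6 FPKM in the Gr-1+ CD11b+ population, 835 in macrophages and 363 in DC. Its difference of 2.01 between the Gr-1+ CD11b+ population and DC lay just past the size rule and was 1.64 with library sums made equal, which ended the call. The tables give 1 value for Pkm, so its M1 and M2 splice forms cannot be told apart. The ratio of Pkm to Ldha within a library, which scaling does not move, was 1.70 in the Gr-1+ CD11b+ population, 0.959 in macrophages and 0.508 in DC.

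Lactate dehydrogenase is a tetramer of A and B subunits, of which the A form favours the making of lactate. Ldha was at 866 FPKM in the Gr-1+ CD11b+ population, 869.9 in macrophages and 715 in DC. Its differences of -0.01, 0.28 and 0.28 were small as deposited. With median-ratio scaling they were 0.57, 1.05 and 0.48, still short of the size rule. Ldhb (chr6:142490249-142507957, minus strand) was at 26.4, 37.1 and 7.98 FPKM. Its difference of 2.09 between macrophages and DC was called, but was 1.73 with library sums made equal and 1.39 with a pseudocount of 10. In the Gr-1+ CD11b+ population against DC the Ldhb difference was 1.61. It was 2.33 with median-ratio scaling and 1.27 with library sums made equal. Ldhb held 2.96%, 4.09% and 1.10% of the step, so Ldha made up most of it in every library.

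Lactate export showed the largest difference of the set between the Gr-1+ CD11b+ population and DC. Slc16a3 (chr11:120948480-120960868, plus strand) encodes MCT4, the carrier that exports lactate from strongly glycolytic cells, and was at 1572 FPKM in the Gr-1+ CD11b+ population, 218 in macrophages and 35.8 in DC. The levels were far apart, with differences of 2.84 between the Gr-1+ CD11b+ population and macrophages, 5.42 between the Gr-1+ CD11b+ population and DC and 2.57 between macrophages and DC, and all 3 were called on every scaling tried. Estimated fragments were 8429, 3152 and 695, with counting intervals of 1539 to 1606, 210.4 to 226 and 33.2 to 38.6 FPKM. In the Gr-1+ CD11b+ population Slc16a3 was the most abundant of the 34 genes and lay above 99.8% of all symbols, against 97.5% in macrophages and 89.2% in DC.

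Slc16a1, the gene of the widespread carrier MCT1, was at 3.93 FPKM in the Gr-1+ CD11b+ population, 5.53 in macrophages and 7.68 in DC, and the first value lay below the silent-gene level. Slc16a3 thus held 99.8%, 97.5% and 82.3% of the FPKM of both carriers. Set against Ldha in the same library, Slc16a3 was 1.82 times as high in the Gr-1+ CD11b+ population, 0.251 times in macrophages and 0.0501 times in DC.

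PDH kinases switch off the entry of pyruvate into the mitochondrial cycle, and Pdk3 led in each library. It was at 17.9 FPKM in the Gr-1+ CD11b+ population, 51.9 in macrophages and 30.8 in DC, and held 78.9%, 91.4% and 81.6% of the 3 kinases in the set. These shares leave out the kinase gene Pdk2, at 2.50, 8.46 and 6.45 FPKM, which exceeded the silent-gene level in macrophages and DC. The Pdk3 differences of -1.49, -0.75 and 0.74 did not reach the size rule. Pdk1, a known target of hypoxia-inducible factor (HIF), was at 3.57, 4.16 and 6.69 FPKM, and Pdk4, a kinase of fasting and fat use, at 1.22, 0.719 and 0.238, below the silent-gene level in all 3 libraries. The 3 PDH kinases in the set had the lowest summed ratio of any step for the Gr-1+ CD11b+ population over DC, 0.601. That of Slc16a1 and Slc16a3 together was 36.2.

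In glycogen turnover, the breakdown gene Pygl was called and the genes for synthesis and branching were not. Pygl (chr12:70190811-70231488, minus strand) encodes the liver-type glycogen phosphorylase, which releases glucose-1-phosphate from glycogen, and was at 296 FPKM in the Gr-1+ CD11b+ population, 40.1 in macrophages and 12.4 in DC. Its differences of 2.85 from macrophages and 4.47 from DC were called on every scaling tried, and the 1.61 between macrophages and DC was not called. Estimated fragments were 1935, 706 and 294, with counting intervals of 283 to 309.5, 37.2 to 43.1 and 11.1 to 13.9 FPKM. Gys1, glycogen synthase, was at 7.502, 4.28 and 4.64 FPKM, and Gbe1, the branching enzyme, at 2.56, 3.78 and 3.49. Both Gr-1+ CD11b+ values lay below the silent-gene level, so the Pygl to Gys1 ratios of 39.5, 9.35 and 2.68 rest in the Gr-1+ CD11b+ population on a Gys1 value that is not read as expression.

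The libraries divided their glycolytic transcripts differently among the steps. Of the summed FPKM of the 34 genes, lactate carriers took 17.5% in the Gr-1+ CD11b+ population, 3.63% in macrophages and 1.21% in DC, and glucose carriers took 8.68%, 3.70% and 3.03%. Glycogen breakdown, which is Pygl alone among the 34 genes, took 3.28%, 0.651% and 0.346%. Lactate dehydrogenase took 9.89%, 14.7% and 20.1%, aldolase 8.94%, 11.5% and 13.5%, and phosphofructokinase 1.17%, 2.22% and 3.13%. These shares do not depend on library scaling, but a share falls when another step takes more.

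**Figure D4:**
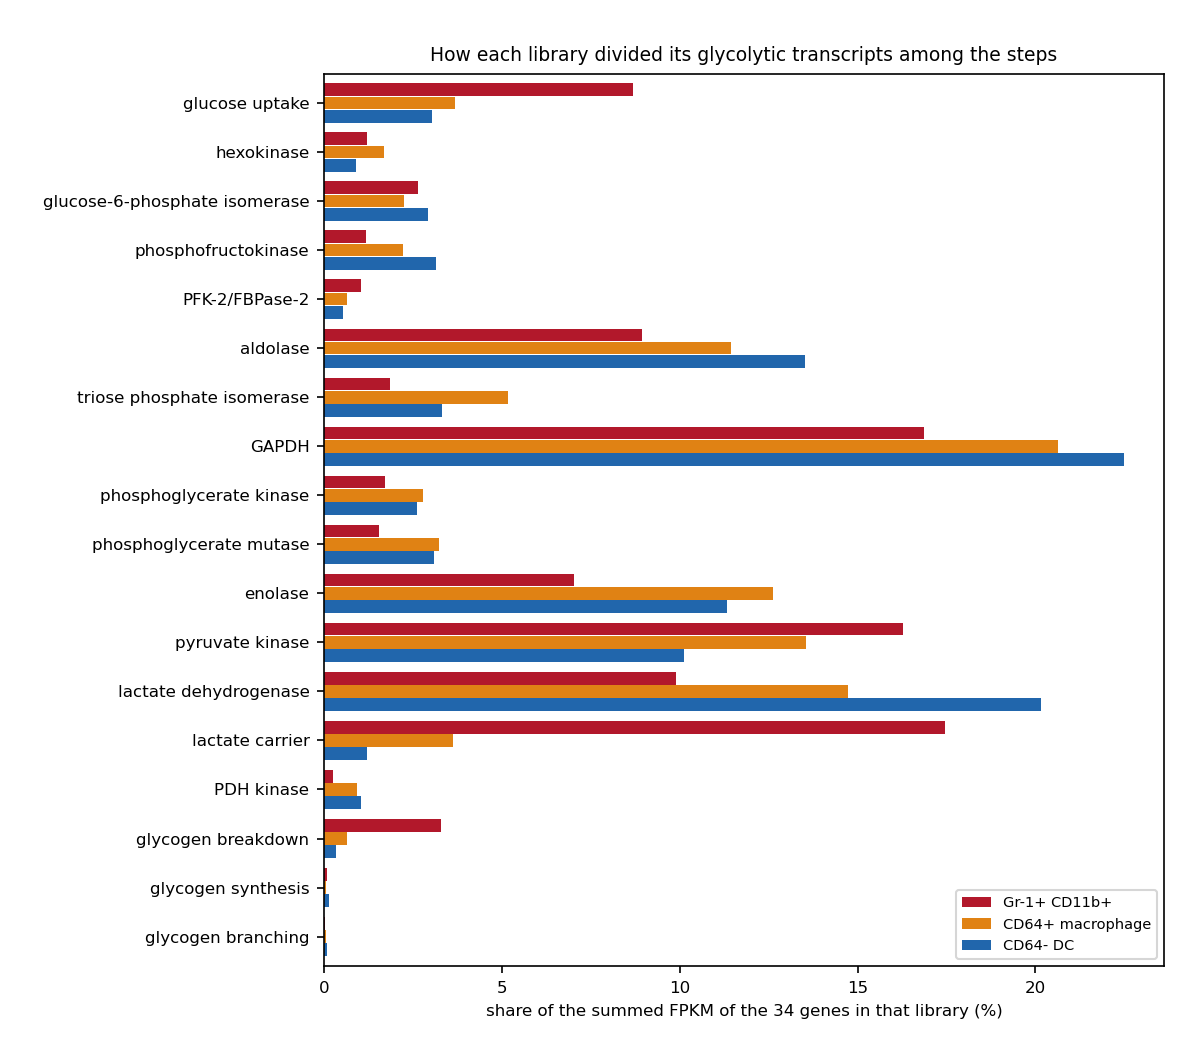
Share of the summed FPKM of the 34 genes held by each of 18 steps, in percent of that sum within the library, with bars for the Gr-1+ CD11b+ population, macrophages and DC from top to bottom in each group. The lactate carrier bar is 17.5% in the Gr-1+ CD11b+ population against 1.21% in DC, and the lactate dehydrogenase bar is 9.89% against 20.1%.

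The list was also set beside other genes. Its median difference over the 32 members that passed the filter was 0.07 for the Gr-1+ CD11b+ population minus macrophages, 0.67 for the Gr-1+ CD11b+ population minus DC and 0.62 for macrophages minus DC, where all genes compared had medians of 0.10, 0.01 and 0.05. For 20 genes of the tricarboxylic acid cycle, which oxidises the products of pyruvate in mitochondria, the medians were -1.10, -1.002 and -0.07. For 15 housekeeping genes they were -1.23, -1.17 and -0.25. Median-ratio scaling moved the glycolytic medians to 0.57, 1.27 and 0.77, those of the cycle to -0.54, -0.25 and 0.13, and those of all genes compared to 0.59, 0.72 and 0.18. The housekeeping medians were then -0.65, -0.40 and -0.05, below those of the cycle. On each scaling tried the glycolytic median lay above those of the cycle and of the housekeeping genes in all 3 comparisons. In the Gr-1+ CD11b+ population against macrophages it lay close to that of all genes as deposited and with median-ratio scaling, but with the silent-gene median subtracted it was -0.01, against -0.53 for all genes. Members above 0 in that comparison were 16 of 32 as deposited and 27 of 33 with median-ratio scaling, where all genes compared had 9093 of 17329 and 12036 of 18041 above 0. As deposited, 1 gene of the cycle and 1 housekeeping gene were called lower in the Gr-1+ CD11b+ population than in macrophages, and 2 and 3 were called lower than in DC. Of all genes compared, 3.41% and 6.28% were called lower in these comparisons.

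**Figure D5:**
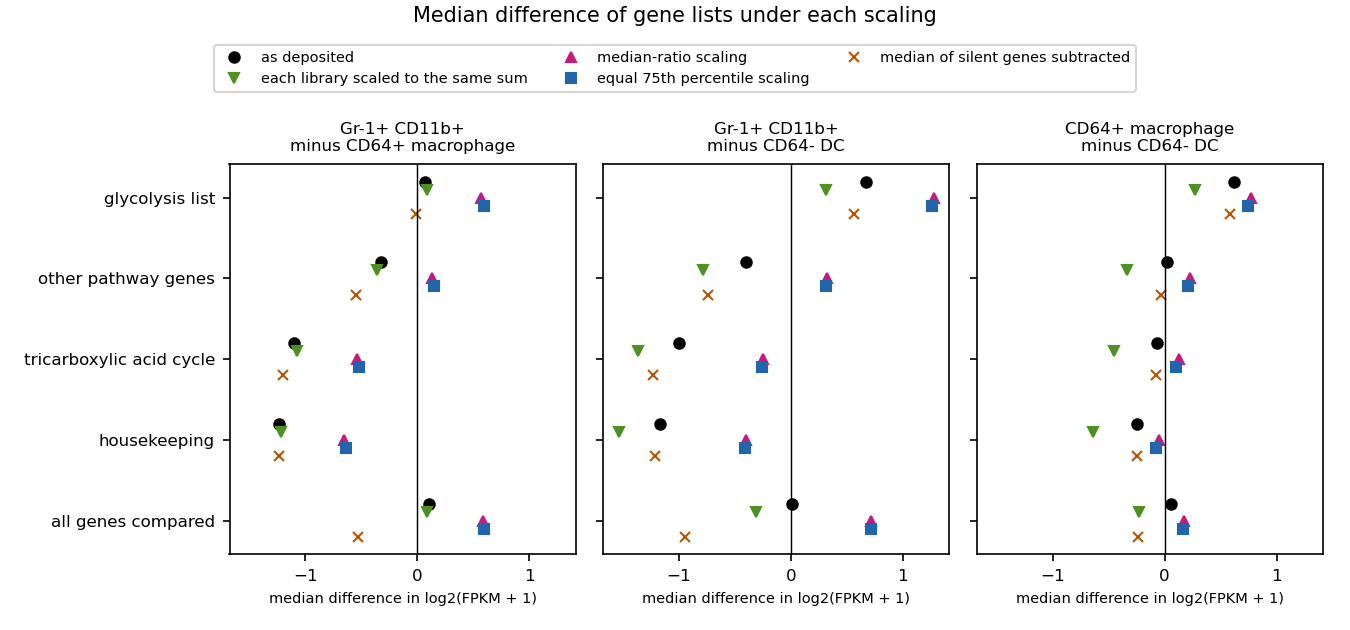
Median difference in log2(FPKM + 1) of the glycolysis list, 3 other lists and all genes compared, with 1 panel per comparison and 1 symbol per scaling. On each scaling the glycolysis list lies to the right of the tricarboxylic acid cycle and of the housekeeping genes. Its own position moves between 0.31 and 1.27 for the Gr-1+ CD11b+ population minus DC.

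Of 25 members that reached 10 FPKM in any library, 13 were highest in the Gr-1+ CD11b+ population, 11 in macrophages and 1 (Eno3) in DC. Over the 7087 genes at that level the shares highest in each library were 19.9%, 30.1% and 49.99%, where the members had 52%, 44% and 4%. With median-ratio scaling 20, 4 and 1 members were highest in the same libraries, and the shares over the 7087 genes were 32.0%, 30.8% and 37.3%. The split of the members between the Gr-1+ CD11b+ population and macrophages thus depended on the scaling.

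Of 48 other genes of the pathway, all listed in the tables, 39 passed the filter. Among them 0 were called higher and 0 lower in the Gr-1+ CD11b+ population against macrophages, and 0 and 0 in macrophages against DC. Against DC, 1 was called lower in the Gr-1+ CD11b+ population and 0 higher. That gene was Pck2, the mitochondrial enzyme that makes phosphoenolpyruvate, at 3.59 FPKM in the Gr-1+ CD11b+ population, 5.21 in macrophages and 18.6 in DC, with a difference of -2.10 and a Gr-1+ CD11b+ value below the silent-gene level. The median differences of this list were -0.32, -0.40 and 0.02, against 0.07, 0.67 and 0.62 for the members. Over the 17329 genes compared as deposited, 244, 633 and 401 were called higher in the 3 comparisons and 591, 1088 and 266 lower. With median-ratio scaling 3, 4 and 1 of the 40 genes of this list that then passed the filter were called higher and 0 lower. Over all 18041 genes compared with that scaling, 618, 1126 and 452 were called higher and 251, 353 and 204 lower.

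Many glycolytic genes are known targets of HIF, whose binding element has ACGTG or GCGTG as core letters. Both letter runs were searched on both strands in the 250 bases before each annotated start (RefSeq, GRCm38.p6). Runs on opposite strands can overlap, as in CACGTG, and each position was counted. At least 1 run was found for 28 of the 33 members with a window, against 41.5% of 27025 genes. A gene counted if any of its windows held a run, so genes with more windows had more chances. The 33 members had 51 windows and the 27025 genes had 32851. By window, a run was found in 38 of 51 for members and in 38.6% of all. Among genes at 10 FPKM or more in any library it was found for 22 of 24 members and for 60.2% of 5409 genes. The median G and C content of the first window was 61.0% in those members and 58.8% in those genes. The run was present in 7 of 7 members with a window that were called in any comparison and in 15 of 17 that reached 10 FPKM and were not called. A run of letters describes the window and shows no binding.

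Windows are shown for 4 genes with large differences and for Ldha, whose level was close to even as deposited. Ldha has 2 annotated windows, and the first, with 5 runs, is shown, while the second, at chr7:46846832-46847081, held 1. Each is the 250 bases before an annotated start, 5′ to 3′ on the strand of the gene, with the searched runs in capitals. They lie at chr11:120948817-120949066 on the plus strand for Slc16a3, chr12:70227684-70227933 on the minus strand for Pygl, chr13:55021386-55021635 on the minus strand for Hk3, chr9:108991652-108991901 on the plus strand for Pfkfb4 and chr7:46845554-46845803 on the plus strand for Ldha.
Slc16a3: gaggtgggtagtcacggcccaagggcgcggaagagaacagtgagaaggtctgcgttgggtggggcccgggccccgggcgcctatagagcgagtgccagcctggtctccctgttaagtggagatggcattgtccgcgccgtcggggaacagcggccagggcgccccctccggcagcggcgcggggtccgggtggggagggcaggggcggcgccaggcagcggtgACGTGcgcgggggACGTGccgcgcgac
Pygl: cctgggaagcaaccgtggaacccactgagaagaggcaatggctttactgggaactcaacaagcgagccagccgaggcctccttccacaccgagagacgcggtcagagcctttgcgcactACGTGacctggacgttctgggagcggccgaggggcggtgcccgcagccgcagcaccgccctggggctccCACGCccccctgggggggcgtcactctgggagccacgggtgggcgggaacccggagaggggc
Hk3: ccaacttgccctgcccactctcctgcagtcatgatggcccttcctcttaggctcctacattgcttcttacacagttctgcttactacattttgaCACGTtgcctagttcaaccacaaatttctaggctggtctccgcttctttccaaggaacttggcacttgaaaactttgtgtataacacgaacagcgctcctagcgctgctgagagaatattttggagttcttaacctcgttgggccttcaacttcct
Pfkfb4: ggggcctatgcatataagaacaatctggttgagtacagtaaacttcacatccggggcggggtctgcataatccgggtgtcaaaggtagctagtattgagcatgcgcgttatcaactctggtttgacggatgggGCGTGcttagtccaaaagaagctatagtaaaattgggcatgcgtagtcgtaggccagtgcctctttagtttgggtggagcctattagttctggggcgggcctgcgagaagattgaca
Ldha: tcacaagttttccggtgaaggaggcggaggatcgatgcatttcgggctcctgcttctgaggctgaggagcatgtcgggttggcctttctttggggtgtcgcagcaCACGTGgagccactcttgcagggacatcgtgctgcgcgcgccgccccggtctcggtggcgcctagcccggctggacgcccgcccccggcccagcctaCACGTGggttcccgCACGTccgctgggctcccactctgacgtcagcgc
Slc16a3 and Pygl held 2 runs each, and Hk3 and Pfkfb4 held 1 each.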

How the data were processed

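RNA from 3 isolated colonic populations was converted with SMART-Seq HT and Nextera kits, per the labels' protocols. The authors deposited 1 FPKM value per gene symbol and library, with the unit read from the values and from Cufflinks in the submitters' processing notes. Those notes list Cufflinks 2.2.1, SAMtools 0.1.19, TopHat2 2.0.13, Bowtie2 2.2.3 and mm10, with no role or order. The sources used here do not give the annotation or filters. The most abundant 10 genes held 33.5%, 22.2% and 15.0% of the FPKM sum in the Gr-1+ CD11b+ population, macrophages and DC.

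Values were used as deposited, with a pseudocount of 1 on the log2 scale. Comparisons covered genes that reached 1 FPKM anywhere. Coordinates and transcript lengths came from GENCODE M21 on GRCm38, which is mm10. It held all 34 members and 23310 of 24346 symbols. One fragment on a 1 kb transcript was worth 0.445, 0.165 and 0.123 FPKM in the same order. These came from genes with a single transcript over 800 nt, where 65.3%, 62.3% and 71.7% of low values lay within 0.2 of a whole multiple. A length of 1 kb with 3 fragments thus had 1.33, 0.495 and 0.369 FPKM. Amplified fragments are not independent molecules, so intervals cover counting error only. Copies were sought with BLAST 2.17.0 over at least 300 aligned bases.

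The members, lists and size rule were chosen with earlier results of these data known. All 34 members are named, and of the other pathway genes Eno1b and those called. Slc2a8, Slc2a9, Slc2a10, Slc16a7, Pdk2, Pygb and Pygm are also named, beside the members of their steps. The alternatives were pseudocounts of 0.1 and 10, floors of 0 and 30 FPKM, no filter, log2 limits of 1 and 3, equal sums, median ratios over genes at 1 FPKM or more in every library, equal 75th percentiles and subtraction of silent-gene levels. Python 3.11.15, NumPy 2.4.6, pandas 2.3.3, SciPy 1.17.1 and matplotlib 3.10.9 were used.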

Additional observations from a re-analysis of the deposited data

How the results depend on the processing

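With 1 library per population no spread between samples could be had, and counting error is the only error given. No paired analysis was possible because each group has a single library and no replicate number. The signs of the medians held on every setting tried, except in the Gr-1+ CD11b+ population against macrophages, where subtracting the silent-gene median, or using no filter, gave -0.01. With median-ratio or 75th percentile scaling the median difference between the Gr-1+ CD11b+ population and DC was 1.27 or 1.26. Members called higher in the Gr-1+ CD11b+ population than in macrophages were 5 under either scaling. With a log2 limit of 1, members called higher were 5 in the Gr-1+ CD11b+ population against macrophages, 11 in the Gr-1+ CD11b+ population against DC and 8 in macrophages against DC, and members called lower were 3, 1 and 0, where higher calls took 4.72%, 6.03% and 5.69% of all genes and lower calls 15.1%, 18.6% and 5.59%. With a limit of 3, 1, 4 and 0 members were called higher, where 0.577%, 2.07% and 0.652% of all genes were. The difference of Pkm between the Gr-1+ CD11b+ population and DC was 1.99 with a pseudocount of 10, which ended its call. Subtracting the silent-gene median gave 1 member called lower in the Gr-1+ CD11b+ population against macrophages (Aldoc) and 1 against DC (Eno3), of 31 that then passed the filter. Over all 14183 genes compared, 911 and 1665 were called lower with this setting. The same subtraction moved 3 of 75 isozyme shares by 5 percentage points or more, and subtracting the 95th percentile moved 8. Calls over all genes with median-ratio scaling and as deposited were 618 and 244 higher, and 251 and 591 lower, for the Gr-1+ CD11b+ library against macrophages, and 1126 and 633 higher, and 353 and 1088 lower, against DC. At or below the silent-gene level of the library lay 12 of 34 members in the Gr-1+ CD11b+ population, 5 in macrophages and 1 in DC. The cause of each of these shifts was not tested.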
